A study of Homo sapiens with 4 samples.

Results

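The genes of MHC class II antigen presentation and their main regulators were followed in the established human breast cancer line MDA-MB-231, which is triple-negative, that is, without the receptors for estrogen, progesterone and HER2. The group holds 10 genes chosen by name, with earlier results of these data known. All 10 were found among the 39259 genes of the deposited table by their Entrez IDs. They are the chains HLA-DRA, HLA-DRB1, HLA-DRB5, HLA-DPA1 and HLA-DPB1, the loading factors HLA-DMA, HLA-DMB and CD74, and the regulators CIITA and RFX5. Total RNA was sequenced in 2 libraries labelled as a knockout (KO) of mdig and in 2 wild-type (WT) libraries, all from cultures in DMEM/F-12 medium with serum and no stated treatment. The gene of mdig (MINA53), an oxygenase with a JmjC domain, is RIOX2. The labels do not say whether the KO cells are 1 clone or how the knockout was made, nor that the replicates were separate cultures, so the p-values rest on the spread of these libraries alone, and that spread may be technical.

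MHC class II molecules are made of an alpha and a beta chain and show peptides from endocytosed proteins to CD4+ T cells. B cells, macrophages and dendritic cells carry them all the time, and many other cells make them after exposure to interferon-gamma. The invariant chain CD74 fills the peptide groove during transport, and HLA-DM helps to exchange its last fragment for a peptide. CIITA is the coactivator that switches these genes on. It does not bind DNA itself but docks on RFX (RFX5, RFXAP and RFXANK), on CREB-type factors and on NF-Y, which sit on the X and Y boxes of the class II promoters.

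The promoter sequences are shown because several members carry letters of these boxes. A link between these letters and the members' levels was not tested. The RefSeq table of promoters (build GRCh38.p14, from 250 bases before to 50 bases after a gene's start) matched 8 of the 10 members, with 11 starts. The stretch from base -130 to base -1 before the start is printed 5′ to 3′ for the 5 that hold the pair of letters described after them; the other 3 in the table, HLA-DPA1, HLA-DPB1 and RFX5, do not hold it. Capitals mark TGATGA, a stretch common to X boxes, GCAAC, a core recognised by RFX, and ATTGG or CCAAT, the core of the Y box bound by NF-Y, each searched on both strands. The stretches are on the minus strand, at chr6:32589849-32589978 for HLA-DRB1, chr6:32530288-32530417 for HLA-DRB5, chr6:32953098-32953227 for HLA-DMA, chr6:32941029-32941158 for HLA-DMB and chr5:150412911-150413040 for CD74.
HLA-DRB1: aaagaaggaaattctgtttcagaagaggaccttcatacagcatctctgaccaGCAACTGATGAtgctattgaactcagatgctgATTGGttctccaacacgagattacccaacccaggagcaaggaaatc
HLA-DRB5: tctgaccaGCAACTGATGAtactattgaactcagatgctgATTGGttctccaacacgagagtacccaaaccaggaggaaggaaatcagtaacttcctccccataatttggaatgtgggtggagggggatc
HLA-DMA: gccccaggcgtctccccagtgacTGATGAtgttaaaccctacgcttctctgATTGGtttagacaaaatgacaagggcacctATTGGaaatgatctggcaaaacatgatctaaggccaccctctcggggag
HLA-DMB: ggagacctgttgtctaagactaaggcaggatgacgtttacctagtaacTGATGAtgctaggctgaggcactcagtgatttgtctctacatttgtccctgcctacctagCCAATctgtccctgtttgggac
CD74: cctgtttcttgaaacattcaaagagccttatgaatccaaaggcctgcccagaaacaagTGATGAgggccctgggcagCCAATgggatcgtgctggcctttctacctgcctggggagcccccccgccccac

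In these 5 of the 8 members TGATGA was followed within 60 bases by the CCAAT core. Counted by start, 5 of the members' 11 promoters held this arrangement, beside 1.11% of all 35116 promoters in the table. It started at base -73 in HLA-DRB1 and base -117 in HLA-DRB5, each with the CCAAT core starting 27 bases further on. The distance was 28 bases in HLA-DMA, 60 bases in HLA-DMB and 19 bases in CD74. Taken alone, TGATGA was found in 10.9%, GCAAC in 33.6% and the CCAAT core in 34.6% of all promoters. In HLA-DRB1 and HLA-DRB5 the RFX core lies directly before the X box stretch. The X box stretch and the spacing were picked after the members' sequences had been read, so these matches describe letters in a window and are no test. The promoters of HLA-DRB1 and HLA-DRB5 had the same base at 228 of 256 aligned positions (89.1%).

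The libraries held 48768932 and 52163811 fragments assigned to genes in KO replicates 1 and 2, against 45173267 and 22503981 in WT replicates 1 and 2. Values are in FPKM, fragments per kilobase of gene and per 1000000 assigned fragments, and 3 fragments on a gene of 1 kb are worth 0.0575 to 0.0615 FPKM in the KO libraries and 0.0664 to 0.133 FPKM in the WT libraries. RIOX2, the gene named by the labels, measured 9.23 and 9.82 FPKM in the libraries labelled KO, against 8.60 and 8.24 FPKM in the WT libraries, so its RNA was not lower under the KO label (log2 change 0.16, limma adjusted p = 0.0546, 0.0131 to 0.360 over 14 alternatives). Single exons have no value of their own in the table, so the label could not be checked from this RNA, and each difference given here sets libraries by their labels. The mesenchymal marker VIM, typical of this line, measured 2000 FPKM in both libraries labelled KO and 2275 and 2394 FPKM in WT (log2 change -0.22, adjusted p = 0.0154, limma). Of 7 markers listed as present in the line, 2 were called higher and 2 lower (limma adjusted p under 0.05). Over all genes tested, 21.6% were called higher and 28.4% lower. CD44 (0.18) and CAV1 (0.59) rose, while the keratin gene KRT18 (-0.19) fell like VIM. Of 4 markers listed as low in the line, the hormone receptor genes ESR1 and PGR had at most 1 fragment in any library. The epithelial genes EPCAM and CDH1 were higher in the libraries labelled KO. EPCAM measured 2.64 and 2.65 FPKM there and 2.15 and 1.87 FPKM in WT (0.28, adjusted p = 0.0103, limma). CDH1 measured 0.597 and 0.625 FPKM, against 0.177 and 0.128 FPKM in WT (ratio in fragments 3.81).

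All 10 members were higher in both libraries labelled KO than in both WT libraries. Of the 25798 genes with a value above 0 in any library, 24.4% showed this arrangement. The members were chosen with earlier results of these data known, so their count beside this share is no test. The main test took the 11716 genes averaging 1 FPKM or more, of which 21.6% were called higher and 28.4% lower, 49.9% in either direction (limma on log2(FPKM + 1), with p adjusted after Benjamini and Hochberg and a threshold of 0.05). With all libraries these were 2527 higher and 3323 lower genes. There were 1733 higher and 2069 lower without KO replicate 1, and 1542 and 1996 without KO replicate 2. Median-of-ratios scaling turned the split to 3094 higher and 2504 lower, and moved the median of all genes from -0.041 to 0.014 on the log2 scale. The filter kept 7 members, of which 3 (HLA-DRB1, HLA-DPA1 and HLA-DMB) reached it only through their level in the libraries labelled KO. These 7 were all called higher. Group means reached 1 FPKM for 8 members under the KO label and for 4 in WT. In bulk RNA, more cells with the transcripts and more RNA per cell cannot be told apart.

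**Figure D1:**
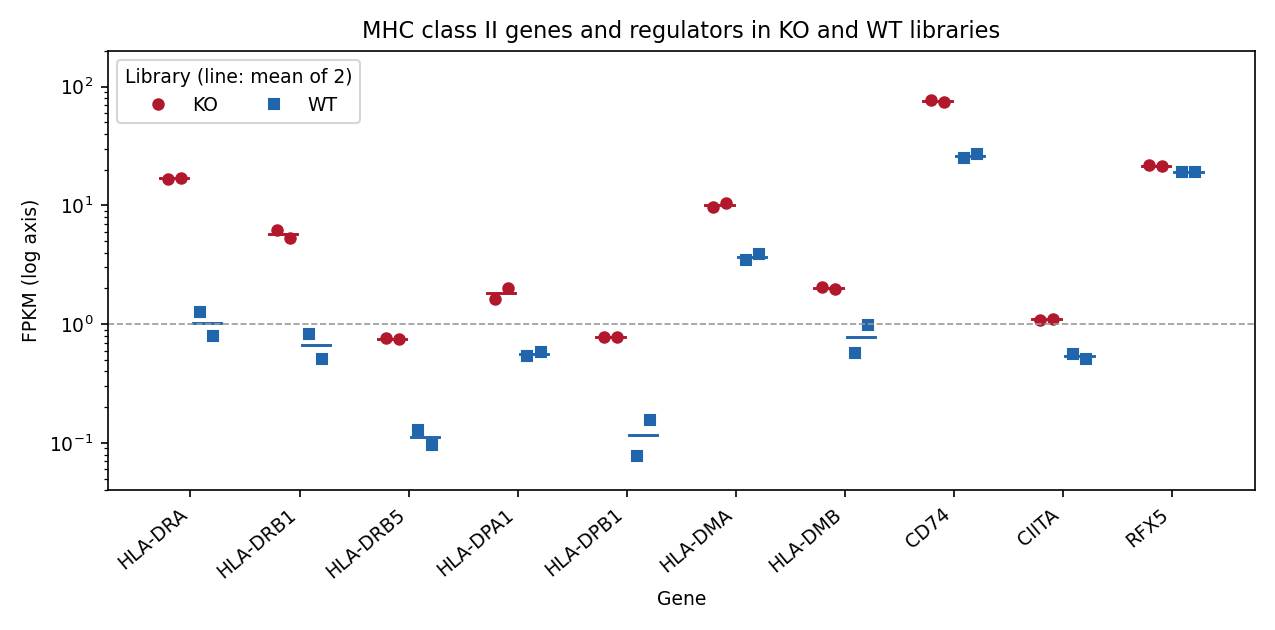
FPKM of the 10 members (log axis) in the libraries labelled KO (red circles) and WT (blue squares), with a short line at the mean of 2 libraries and a dashed line at 1 FPKM. For every gene both red circles lie above both blue squares; the gap is widest for HLA-DRA (16.8 and 17.0 against 1.27 and 0.792 FPKM) and narrowest for RFX5 (21.8 and 21.3 against 18.9 and 19.2 FPKM).

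HLA-DRA encodes the alpha chain of HLA-DR, which varies little between people (Entrez ID 3122, chromosome 6, 32439887 to 32445046, plus strand; coordinates here are as deposited and match GRCh38). It measured 16.8 and 17.0 FPKM in the libraries labelled KO, from 1009 and 1098 fragments, against 1.27 and 0.792 FPKM in the WT libraries, from 71 and 22 fragments. The groups lay far apart, and WT replicate 2 was the lowest library. The log2 change of 3.15 (SE 0.11, adjusted p = 1.06e-05, limma) had rank 1 among all rises tested. On the fragments themselves the level was 15.2 times that of WT, with an exact 95% interval of 12.3 to 18.9 that covers counting error only, like all such intervals here.

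HLA-DRB1 encodes the main beta chain that pairs with it (Entrez ID 3123, chromosome 6, 32578775 to 32589848, minus strand). It measured 6.15 and 5.30 FPKM in the libraries labelled KO, against 0.833 and 0.509 FPKM in the WT libraries. Both KO values were more than any WT value, although the WT libraries held only 60 fragments together. Its log2 change was 2.01 (SE 0.11, adjusted p = 3.09e-05, limma), rank 4 among the rises, and 3.02 with voom on fragments, where no pseudocount of 1 FPKM damps low values.

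HLA-DRB5 is a further DR beta gene that only some chromosomes carry (Entrez ID 3127, chromosome 6, 32517343 to 32530316). It stayed under 1 FPKM, with 0.761 and 0.753 FPKM in the libraries labelled KO and 0.129 and 0.0970 FPKM in the WT libraries. These rest on 51 and 54 fragments in the libraries labelled KO and 8 and 3 in WT. It followed HLA-DRB1 at a lower level: HLA-DRB1 was 8.09 and 7.04 times as high per length in the libraries labelled KO and 6.47 and 5.25 times in WT. Of the 50-base windows of its longest GENCODE 29 coding transcript, 8.42% are found in another gene, all 102 of them in HLA-DRB1. The share was 9.92% for HLA-DRB1, 2.65% for HLA-DPB1, 11.6% for HLA-DMA, 29% for HLA-DMB and 15.2% for CIITA, and 0 for the other members; for HLA-DMA and HLA-DMB all of it lay in another GENCODE gene model, AL645941.2. Reads can therefore be shared between these genes, and class II beta chains also vary between people, so that reads of alleles far from the reference can be lost. Whether the line carries HLA-DRB5 was not tested.

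The HLA-DP chains stood below HLA-DRA and, in the libraries labelled KO, below HLA-DRB1 as well. HLA-DPA1, the alpha chain (Entrez ID 3113, chromosome 6, 33064569 to 33080748), measured 1.63 and 2.005 FPKM in the libraries labelled KO and 0.544 and 0.584 FPKM in WT. Its log2 change was 0.85 (SE 0.080, adjusted p = 0.000131, limma) and 1.68 with voom, and the fragments gave a ratio of 3.27 (95% interval 2.50 to 4.33). HLA-DPB1, the beta chain (Entrez ID 3115, chromosome 6, 33075990 to 33089696), measured 0.781 and 0.773 FPKM in the libraries labelled KO and 0.0777 and 0.156 FPKM in WT. It rested on 313 fragments in the libraries labelled KO and 28 in WT, a ratio of 7.50 (95% interval 5.09 to 11.5). The genes lie head to head on opposite strands and share 69 exon bases, and the strand setting of the counting is not given in the sources used here, so reads of that stretch cannot be assigned with certainty. The same holds for 669 exon bases of CIITA shared with DEXI and 38 of RFX5 shared with RFX5-AS1, both on opposite strands.

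HLA-DMA and HLA-DMB encode the chains of HLA-DM, the peptide-exchange factor that does not itself present. HLA-DMA (Entrez ID 3108, chromosome 6, 32948618 to 32953097) measured 9.64 and 10.5 FPKM in the libraries labelled KO and 3.44 and 3.90 FPKM in WT (log2 change 1.25, SE 0.072, adjusted p = 1.30e-05, limma). HLA-DMB (Entrez ID 3109, chromosome 6, 32934636 to 32941028) measured 2.04 and 1.96 FPKM in the libraries labelled KO and 0.575 and 0.989 FPKM in WT. Relative to their mean the WT libraries were furthest apart for this gene among the tested members. Its log2 change was 0.76 (SE 0.11, adjusted p = 0.00144, limma), from 0.59 to 0.93 when single libraries were left out and 1.49 with voom. In fragments the ratios of both DM genes were alike, 2.81 (95% interval 2.45 to 3.22) for HLA-DMA and 2.81 (2.13 to 3.74) for HLA-DMB.

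CD74, the invariant chain, was the most abundant member (Entrez ID 972, chromosome 5, 150401637 to 150412910). It measured 77.1 and 73.9 FPKM in the libraries labelled KO, from 9253 and 9490 fragments, and 25.1 and 27.0 FPKM in the WT libraries, from 2790 and 1496 fragments. The WT cells thus held CD74 RNA at a level well above that of their class II chains. Its log2 change was 1.5 (SE 0.058, adjusted p = 2.35e-06, limma) and stayed between 1.45 and 1.56 in 14 alternatives. The fragments gave a ratio of 2.93 with the narrowest interval among the members outside the regulators (2.84 to 3.03).

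Of the regulators, CIITA differed by about the size of a doubling while RFX5 differed little. CIITA (Entrez ID 4261, chromosome 16, 10866208 to 10941562) measured 1.09 and 1.11 FPKM in the libraries labelled KO, from 1054 and 1146 fragments, against 0.560 and 0.510 FPKM in WT, from 503 and 228 fragments. Its mean over the 4 libraries was under 1 FPKM, so it was outside the main test. The ratio in fragments was 2.02 (95% interval 1.86 to 2.20). The deposited length of CIITA, 19867 bp, adds up the exons of all its isoforms, which lowers its FPKM against shorter genes, and its alternative promoters cannot be told apart with 1 value per gene. RFX5, the DNA-binding subunit of RFX (Entrez ID 5993, chromosome 1, 151340640 to 151347319), measured 21.8 and 21.3 FPKM in the libraries labelled KO and 18.9 and 19.2 FPKM in WT. Its log2 change of 0.17 (SE 0.053) passed the threshold (adjusted p = 0.0290, limma) but ranked 2736 among the rises. The call was lost without KO replicate 1 (0.15, adjusted p = 0.212), without KO replicate 2 (0.18, adjusted p = 0.145) with a replicate block (0.17, adjusted p = 0.0784), with no filter (adjusted p = 0.0651) and with pseudocount 0.1 and no filter (adjusted p = 0.0583), over a range of 0.00980 to 0.212 in 14 alternatives.

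The members under 1 FPKM entered only fits with no filter on low values. With log2(FPKM + 1) over all 25798 genes, HLA-DRB5 (0.66, adjusted p = 0.00820), HLA-DPB1 (0.67, adjusted p = 0.00970) and CIITA (0.45, adjusted p = 0.0132) were higher in the libraries labelled KO (limma), where 8.68% of all genes were called higher. With voom on fragments their log2 changes were 2.58, 2.91 and 1.02 (adjusted p = 9.37e-07, 2.14e-14 and 2.23e-17), where 13.6% of genes were called higher. The size of these changes thus depended on the pseudocount, and their direction did not in the 3 fits with no filter.

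**Figure D2:**
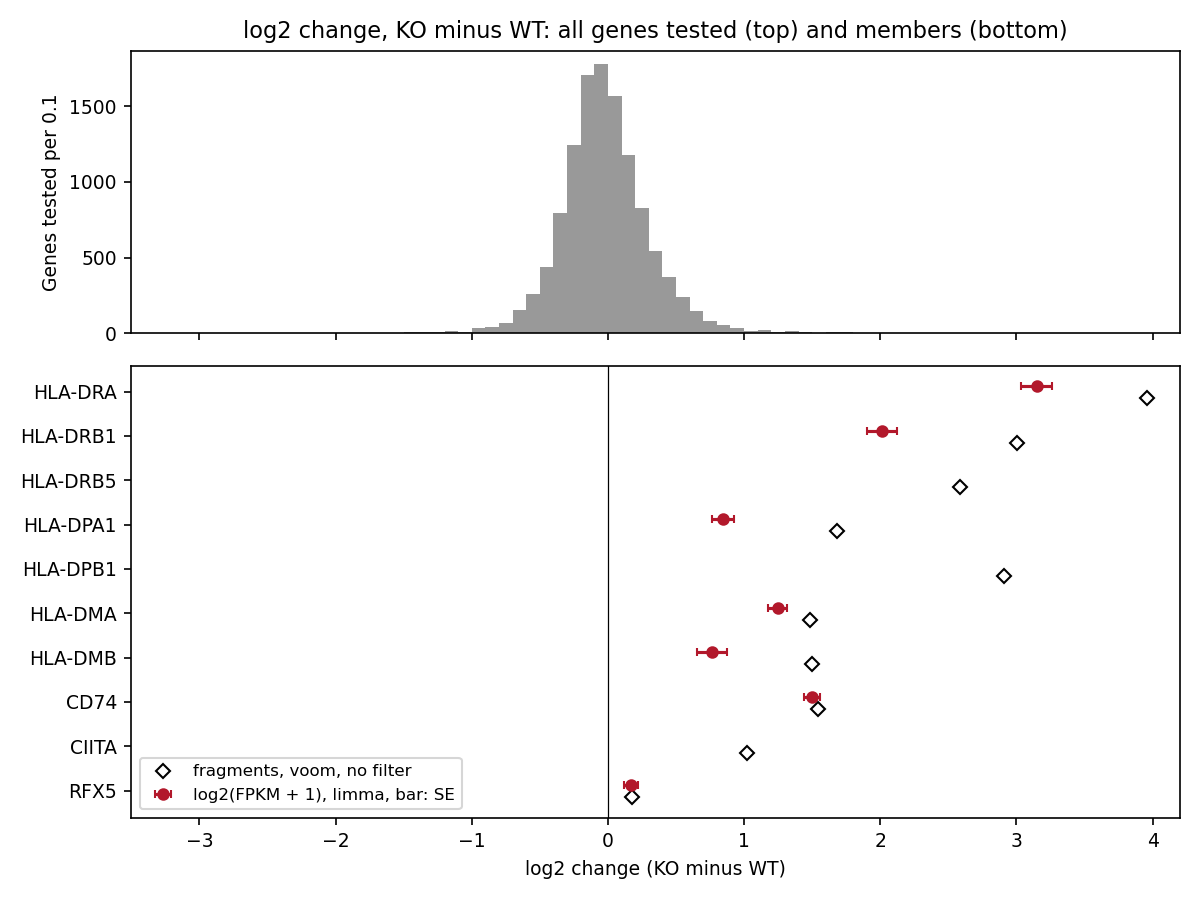
The upper panel counts all 11716 tested genes by log2 change (KO minus WT, on log2(FPKM + 1)), and the lower panel gives the members, with red circles for the tested ones (bar: SE) and open diamonds for voom on fragments with no filter. The members lie to the right of 0, from RFX5 at 0.17 to HLA-DRA at 3.15, and diamonds lie further right than circles for genes with low WT values.

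The members did not move by 1 common factor, as ratios of FPKM within each library show. HLA-DRA stood at 2.72 and 3.22 times HLA-DRB1 in the libraries labelled KO, against 1.53 and 1.56 times in WT. CD74 stood at 4.60 and 4.34 times HLA-DRA in the libraries labelled KO, against 19.7 and 34.1 times in WT. The DR chains thus rose more than the invariant chain in these libraries, and the groups did not overlap in either ratio. The ratio of HLA-DMA to HLA-DMB did overlap, with 4.73 and 5.36 in the libraries labelled KO and 5.99 and 3.95 in WT. Summed over the 5 chains, 35.2 fragments per 1000000 came from these genes in each library labelled KO, against 4.03 and 3.38 per 1000000 in WT. The ratios rest on as few as 14 HLA-DRB1 and 22 HLA-DRA fragments in WT replicate 2, and no test of the differences between members was made.

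In order of level per length, the libraries labelled KO held CD74, RFX5, HLA-DRA, HLA-DMA and HLA-DRB1 from high to low, followed by HLA-DMB, HLA-DPA1, CIITA, HLA-DPB1 and HLA-DRB5. HLA-DMB and HLA-DPA1 overlapped there, with 1.96 to 2.04 and 1.63 to 2.005 FPKM. In WT the order began with CD74, RFX5 and HLA-DMA, and HLA-DRA, at 1.03 ± 0.340 FPKM (SD, n = 2), overlapped with HLA-DMB at 0.782 ± 0.293 and HLA-DRB1 at 0.671 ± 0.229 FPKM. HLA-DRA thus stood above HLA-DMA in the libraries labelled KO and below it in WT.

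Other class II genes were near 0 or did not follow the members. HLA-DQA1, an alpha chain of HLA-DQ, was listed at 0 in all 4 libraries. HLA-DQB1, its beta chain, had 3 and 13 fragments in the libraries labelled KO and 1 and 0 in WT, a ratio of 10.7 with an interval of 1.67 to 449.9. HLA-DQA2 and HLA-DQB2 had at most 3 fragments in any library, and so had the pseudogene HLA-DPB2. HLA-DOA, a chain of the HLA-DM inhibitor HLA-DO, had at most 2 fragments in any library. Its partner HLA-DOB was present at 0.603 and 0.708 FPKM in the libraries labelled KO and 0.835 and 0.503 FPKM in WT, so the groups overlapped (ratio in fragments 0.908, 95% interval 0.651 to 1.27). The pseudogene HLA-DRB6 had 13 and 8 fragments in the libraries labelled KO and 1 and 2 in WT. None of these 8 genes reached a mean of 1 FPKM.

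Most neighbours of the members on chromosome 6 moved less than HLA-DRA and HLA-DRB1. Between the start of HLA-DRA and the end of HLA-DPB1, the 7 other tested genes had a median log2 change of 0.39, with 4 called higher and 1 lower. The immunoproteasome subunits PSMB8 (28.2 ± 0.0562 FPKM in the libraries labelled KO and 18.6 ± 1.17 FPKM in WT; mean ± SD, n = 2 each) and PSMB9 (13.6 ± 1.25 FPKM in the libraries labelled KO and 8.09 ± 0.237 FPKM in WT) rose by 0.58 and 0.68. TAP1, a subunit of the class I peptide transporter, rose by 0.39, and PSMB8-AS1, antisense to PSMB8, by 0.71, where the strands cannot be told apart. PSMB8-AS1 had a WT mean of 0.972 FPKM and reached the filter only through its level in the libraries labelled KO. Its place among the 4 called higher and in the median is thus no support. TAP2, the other subunit, fell by 0.24 (adjusted p = 0.0123, limma), which missed the threshold without KO replicate 1 (-0.21, adjusted p = 0.106) also without KO replicate 2 (-0.26, adjusted p = 0.0564), with no filter (adjusted p = 0.0620) and with pseudocount 0.1 and no filter (adjusted p = 0.0525), over a range of 3.19e-05 to 0.106 over 14 alternatives. BRD2, a bromodomain protein gene next to HLA-DMA, measured 58.6 and 60.7 FPKM in the libraries labelled KO and 58.6 and 56.2 FPKM in WT. In the 1 Mb before the region 14 of 39 tested genes were called higher and 2 lower (median 0.067). Among these were the complement genes CFB and C2. CFB measured 10.6 FPKM in both libraries labelled KO and 3.97 and 4.52 FPKM in WT (1.15, adjusted p = 1.37e-05, limma). C2 measured 2.53 and 2.66 FPKM in the libraries labelled KO and 1.10 and 1.11 FPKM in WT (0.78). On log2(FPKM + 1), which damps low values, their changes were larger than that of HLA-DMB, and that of CFB also exceeded that of HLA-DPA1. In fragments the order was the other way. The ratios were 2.55 for CFB and 2.37 for C2, against 2.81 for HLA-DMB and 3.27 for HLA-DPA1. In the 1 Mb after the region 11 of 21 tested genes were called higher and 1 lower (median 0.18). On the rest of the chromosome 139 of 524 were called higher and 103 lower (median 0.042). Over all genes tested 21.6% were called higher and 28.4% lower, with a median of -0.041. Whether the counts around the region depart from these shares was not tested.

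**Figure D3:**
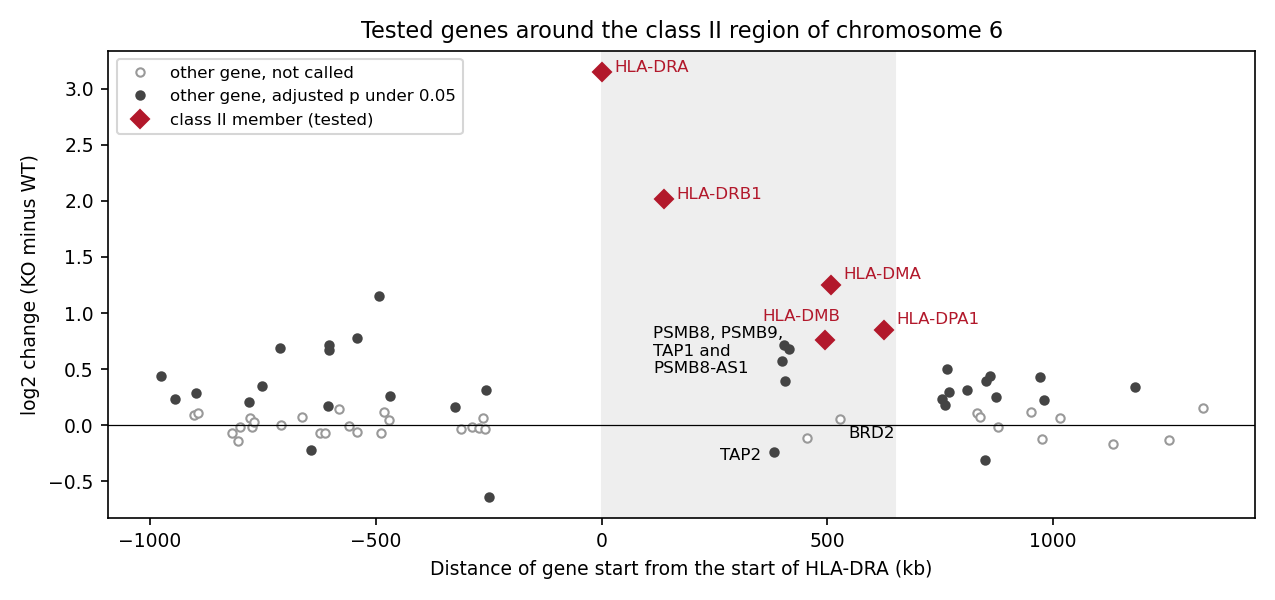
Log2 change (KO minus WT) of tested genes by the distance of their start from that of HLA-DRA in kb, with the class II region shaded; red diamonds are members, filled dots other genes with an adjusted p under 0.05 and open dots other genes. HLA-DRA (3.15) and HLA-DRB1 (2.01) stand above their neighbours, while BRD2 lies at 0.054 and TAP2 at -0.24 between members.

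The factors that share the class II promoters with CIITA moved little. Of 7 such genes, all tested, 1 rose and 1 fell, where 49.9% of all genes tested were called in either direction, and their median log2 change was -0.017. NFYA, the DNA-contacting subunit of NF-Y, rose to 15.2 and 16.0 FPKM in the libraries labelled KO, against 13.2 and 12.3 FPKM in WT (0.27, adjusted p = 0.00639, limma). RFXAP, a partner of RFX5 within RFX, fell to 0.951 and 1.24 FPKM in the libraries labelled KO, against 1.46 and 1.83 FPKM in WT (-0.34, adjusted p = 0.0213, limma). Neither call held throughout: that of NFYA was lost without KO replicate 2 (0.24, adjusted p = 0.0723, range 9.39e-06 to 0.0723) and that of RFXAP without KO replicate 1 (-0.24, adjusted p = 0.146, range 7.61e-08 to 0.146), with no filter (adjusted p = 0.108) and with pseudocount 0.1 and no filter (adjusted p = 0.0965). The others did not pass the threshold, with log2 changes of -0.16 for NFYB, -0.059 for RFXANK (-0.17, adjusted p = 0.0184, without WT replicate 1, range 0.0184 to 0.985), -0.017 for ATF1, -0.0022 for NFYC and 0.091 for CREB1. The signs of RFXANK, ATF1 and NFYC changed with the scaling.

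Genes of the interferon-gamma pathway, the usual inducer of CIITA, held both higher and lower genes. Of 14 genes 12 were tested, 4 rose and 3 fell, with a median of 0.075. Over all genes tested 21.6% rose and 28.4% fell, with a median of -0.041, so the list's share is not read as a result about it. The cytokine gene IFNG itself was listed at 0 in every library. The kinase gene JAK1 rose to 22.5 and 23.2 FPKM in the libraries labelled KO, against 18.5 and 17.2 FPKM in WT (0.34, adjusted p = 0.00202, limma), and JAK2 rose by 0.23. The transcription factor IRF1, which acts on the interferon-responsive promoter of CIITA, rose to 10.8 and 11.3 FPKM in the libraries labelled KO, against 8.91 and 8.95 FPKM in WT (0.28, adjusted p = 0.00438, limma), and IRF2 rose by 0.21. The receptor chain IFNGR1 (-0.23) and the phosphatase PTPN2 (-0.26) were among the genes that fell. Without KO replicate 1 the list had 2 higher and 0 lower genes, and without KO replicate 2 it had 1 and 0.

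The remaining pathway genes did not pass the threshold. They were IFNGR2 (-0.063), USF1 (0.11), USF2 (0.042), SOCS3 (-0.11) and NLRC5 (0.15), the class I counterpart of CIITA, which measured 2.77 FPKM in both libraries labelled KO and 2.39 FPKM in both WT libraries (adjusted p = 0.0599, limma). NLRC5 passed it in 5 of 13 alternatives, among them voom on fragments (0.21, adjusted p = 0.0192, range 0.0192 to 0.274). The feedback inhibitor SOCS1 was under the filter, at 0.729 and 0.898 FPKM in the libraries labelled KO and 0.340 and 0.503 FPKM in WT, from 102 fragments in the libraries labelled KO and 33 in WT.

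Genes for the lysosomal handling and transport of class II molecules also held both. Of 20 genes 16 were tested, 6 rose and 4 fell, with a median of 0.050, beside 21.6% and 28.4% of all genes tested. CTSD, the aspartic protease cathepsin D, rose to 527.8 and 479.6 FPKM in the libraries labelled KO, against 183.2 and 193.6 FPKM in WT (1.41, SE 0.063, adjusted p = 4.03e-06, limma). LAMP2, a protein of the lysosomal membrane, rose by 0.53. LGMN, the protease legumain, fell by 0.54, and the small GTPase RAB7A by 0.26. Without KO replicate 2 the list had 4 higher and 2 lower genes. CTSS, the cathepsin that trims the invariant chain in antigen-presenting cells, was under the filter with 0.828 and 1.05 FPKM in the libraries labelled KO and 0.967 and 0.790 FPKM in WT, and the groups overlapped.

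Co-stimulatory molecules, which T cells need beside the peptide signal, were near 0 or went both ways. CD80 and CD86 had at most 1 fragment in any library. Of 14 genes in the list of co-stimulation and checkpoint molecules 8 were tested, 4 rose and 3 fell, beside 21.6% and 28.4% of all genes tested. Of the rises, LGALS9 and PDCD1LG2 reached the filter only through their level in the libraries labelled KO, so the count supports nothing about the list. LGALS9, the lectin galectin-9, rose to 1.58 and 1.66 FPKM in the libraries labelled KO, against 0.358 and 0.470 FPKM in WT (0.89, SE 0.071). CD274, which encodes the T-cell inhibitor PD-L1, rose to 8.60 and 9.30 FPKM in the libraries labelled KO, against 5.75 and 5.50 FPKM in WT (0.59, SE 0.063). The adhesion molecule ICAM1 fell by 0.80 and CD83, which stabilises class II molecules on dendritic cells, by 0.38. Without KO replicate 1 or without KO replicate 2 the number of higher genes in this list was 1, and LGALS9 was then under the filter.

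Markers of the immune cells that carry class II molecules were mostly under 1 FPKM in both groups, and their part in the members' differences was not tested. The B cell gene MS4A1 was at 0 in every library, and all 7 B cell markers were under 1 FPKM in both groups, with summed levels of 0.159 to 0.361 FPKM in the libraries labelled KO and 0.325 to 0.435 FPKM in WT. The 7 markers of T and NK cells summed to 0.0197 to 0.0255 FPKM in the libraries labelled KO and 0.234 to 0.371 FPKM in WT. Of the 11 myeloid and dendritic markers none was at 0 in every library, and 8 were under 1 FPKM in both groups. Their sum was 46.7 to 48.6 FPKM in the libraries labelled KO and 78.3 to 80.1 FPKM in WT, most of it from the lysosomal gene CD68. Single markers lay on both sides. CSF1R, the receptor of a macrophage growth factor, measured 1.14 and 1.11 FPKM in the libraries labelled KO and 0.542 and 0.565 FPKM in WT. CD14 was lower in the libraries labelled KO, at 0.811 and 0.595 FPKM against 1.18 and 1.27 FPKM in WT (ratio in fragments 0.576, 95% interval 0.446 to 0.744), and so was the integrin gene ITGAM (ratio 0.270, 0.163 to 0.437). The B cell markers PAX5 and CR2 went opposite ways. The B cell factor PAX5 had 53 fragments in the libraries labelled KO and 15 in WT (ratio 2.37, 1.32 to 4.53). CR2 had 4 fragments in the libraries labelled KO and 24 in WT (ratio 0.112, 0.0282 to 0.325). The leukocyte gene PTPRC (CD45) measured 0.125 to 0.142 FPKM in the libraries labelled KO and 0.121 to 0.156 FPKM in WT. LCP1 encodes an actin bundler of leukocytes. It rose to 1.36 and 1.37 FPKM in the libraries labelled KO, against 1.11 and 0.926 FPKM in WT (0.23, adjusted p = 0.0272, limma). CORO1A, a further leukocyte marker, went the other way. It fell to 1.24 and 1.11 FPKM in the libraries labelled KO, against 1.84 and 1.89 FPKM in WT (-0.40, adjusted p = 0.00161, limma).

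The genes with profiles nearest to HLA-DRA and CD74 were found by the Euclidean distance of centred log2(FPKM + 1) values over the 4 libraries, a measure that mostly follows the size of the group difference. For HLA-DRA the 5 nearest protein-coding genes were TRIML2, HAS2, ANXA8L1, LYPD6B and TNC, at distances of 0.997 to 1.31, so none came close to its rise. For CD74 they included CTSD, IQSEC2, ABCC3 and SPOCK1, at 0.105 to 0.131.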

How the data were processed

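Per the labels' protocols, total RNA of cultured cells was made into libraries and sequenced by a service company. STAR, Subread and DESeq2 are named, without role or version, in the submitters' processing notes; not given in the sources used here were the build, the annotation and any strand setting. A single table of FPKM values and gene lengths was deposited, per the file headers. FPKM times length summed to 1000000 per library, and 100% of the values above 0 came out as whole fragments (tolerance 0.001), which gave the depths. Symbols came from RefSeq (GRCh38.p14) for 37708 genes (96.0%), and 98.4% of 37675 genes lay within 1000 bp of that assembly. The table held 0 columns of other samples.

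The main test was limma 3.58.1 (R 4.3.3, trend and robust) on log2(FPKM + 1), KO minus WT, for genes averaging 1 FPKM or more, adjusted over all 11716 genes; such fold changes understate low genes. Alternatives were pseudocount 0.1, no filter, a minimum mean of 5 FPKM, median-of-ratios and quantile scaling, no trend or robust step, voom on fragments, leaving out each library in turn, and a block for the replicate number. Of these fits only the main one was tried on simulated data. Fragment ratios have exact (Clopper-Pearson) 95% intervals. PCR copies are not independent molecules, so the intervals cover counting error only. Replicate pairs stood further apart than counting alone gives (chi-square over its degrees of freedom, 5.30 for KO and 7.62 for WT) and were kept. The members and lists were chosen with earlier results of these data known. Named genes are the members, RIOX2, all genes of the lists of other class II genes, promoter partners and interferon-gamma pathway, the 2 largest called rises and falls of the other lists, called genes of the class II region, and the 5 nearest profiles to HLA-DRA and CD74; CTSS, CD80, CD86, PDCD1LG2, BRD2, CFB, C2 and the markers were added after their values were seen. Some genes that the rule names are not reported here.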

Additional observations from a re-analysis of the deposited data

How the results depend on the processing

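HLA-DRA, HLA-DRB1, HLA-DPA1, HLA-DMA, HLA-DMB and CD74 stayed higher and past the threshold in all alternatives that kept them (12 to 14 each); HLA-DPA1 dropped under the filter without KO replicate 2. HLA-DRB1, HLA-DPA1 and HLA-DMB reached the filter of 1 FPKM only through their level in the libraries labelled KO. Their calls in the filtered fits are thus no further support. They were called higher in the fits with no filter too. With a minimum mean of 5 FPKM 4 members were left and called higher, against 7. Counts over all genes with single libraries left out ranged from 1542 to 3104 higher and 1996 to 3973 lower; the lone library of a group was then assumed to vary like the other pair. The replicate numbers 1 and 2 recur in both groups with no culture tied to them. Same-numbered libraries deviated in opposite ways (r = -0.225 over 11716 genes). A replicate block gave 2348 higher and 3029 lower genes and 6 members (RFX5 lost); a crossed replicate block, chosen after seeing the data like the fits of voom and of pseudocount 0.1 with no filter, gave 2839 higher and 3821 lower genes and 7 members.

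Among promoter partners, leaving out single libraries gave 0 to 1 higher and 0 to 2 lower; the lower count was 0 with no filter, with a minimum mean of 5 FPKM and with pseudocount 0.1 and no filter, and 2 with voom. For the interferon-gamma pathway, 2 genes were higher with no filter and with a minimum mean of 5 FPKM, against 4, and single libraries left out gave 1 to 4 higher and 0 to 3 lower. For lysosomal handling, 2 were lower with median-of-ratios scaling, against 4, and 2 to 4 with single libraries left out. For co-stimulation, 2 were higher with a minimum mean of 5 FPKM, against 4, and 1 to 4 with single libraries left out. Of the other class II genes, 2 (HLA-DQB1 and HLA-DRB6) were called higher with voom and no filter, against 0. Signs changed, with no reversed value past the threshold, for RFXANK (0.002 with median-of-ratios scaling; -0.17 to 0.053 with single libraries left out, called lower at -0.17 without WT replicate 1), NFYC (0.056 with median-of-ratios, 0.015 with quantile normalization, 0.0039 with voom and 0.0047 with voom and no filter; -0.062 to 0.058 left out) and ATF1 (0.039 with median-of-ratios; -0.10 to 0.067 left out). The causes were not tested. Depth limits HLA-DRB5, HLA-DPB1 and the DQ genes, with 28 or fewer WT fragments each.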
